A study of Sus scrofa with 6 samples.

Results

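Leukocytes enter an artery wall in steps, and each step pairs a molecule of the vessel wall with a receptor of the leukocyte. The selectins SELE and SELP on endothelium catch passing cells through sugar-bearing partners. The immunoglobulin-like ligands VCAM1, ICAM1 and ICAM2 then hold cells through integrins, which are pairs of 1 alpha and 1 beta chain. ITGB2 is the beta chain that ITGAL (making LFA-1), ITGAM (making Mac-1) and ITGAX share, and these pairs bind the ICAMs. ITGA4 pairs with ITGB1 to make VLA-4, the receptor of VCAM1, or with ITGB7. In atherosclerosis, VCAM1 and ICAM1 on inflamed endothelium, and also on smooth muscle cells and macrophages of the lesion, are known for drawing in monocytes and T cells.

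Expression of these 10 genes was examined in abdominal aorta RNA of male Wuzhishan pigs, a Chinese miniature breed, after 6 months on a normal chow diet (NC group, n = 3) or on a diet rich in fat, cholesterol and fructose (HFCF group, n = 3). Each library came from the aorta of 1 pig, a piece of whole vessel and not sorted cells. All 6 pigs were given as 3 to 4 months old by the sample labels, while the study's methods give an older age. Genes were taken by name from the deposited table of 30477 genes. The names matched 8 of the 10, namely VCAM1, ICAM1, ICAM2, SELP, ITGB2, ITGAL, ITGAM and ITGA4. SELE was matched through the NCBI gene number in the description of ENSSSCG00000006286, so 9 genes were measured, and all 9 passed the filter for testing. ITGAX was matched by neither of these routes nor by a table of gene IDs, and was not analysed here.

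In the HFCF aortas all 4 measured integrin chains rose, whereas none of the 5 vessel-wall ligands passed the threshold of an adjusted p under 0.05 (limma). ITGB2 rose from 1.63 ± 0.345 to 23.1 ± 18.0 FPKM (SD, n = 3 each), ITGAM from 0.580 ± 0.104 to 8.51 ± 7.55 FPKM and ITGAL from 2.16 ± 0.368 to 10.9 ± 7.62 FPKM. ITGA4 was near 0 in NC pigs and had a mean of 0.910 FPKM in HFCF pigs. VCAM1 was the ligand with the largest difference, with a mean of 25.1 ± 11.8 FPKM on normal chow against 45.5 ± 8.60 FPKM on the HFCF diet (SD, n = 3 each). ICAM1 had nearly equal means of 27.4 ± 2.68 and 27.0 ± 8.37 FPKM. FPKM is the number of fragments per kilobase of exon, scaled by the mapped reads of the library, so it is a level per length and can be set side by side between genes.

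Over all 15384 genes tested, 28.9% were called at an adjusted p under 0.05, 22.8% with the HFCF group higher and 6.16% with it lower. Against this background 4 of 4 integrins and 0 of 5 ligands were higher, and 0 of either were lower. Among the 4, ITGA4 was in the test only because of its HFCF values. Without HFCF pig 1 the counts were the same, beside 18.5% of 15168 genes called higher and 5.18% lower. At an unadjusted p under 0.05 the ligand count was 1, VCAM1. The study's thresholds for DEGs, differentially expressed genes, ask for a ratio of mean FPKM over 2 or under 0.5 together with an unadjusted p under 0.05. They were met by 4 integrins and 0 ligands, beside 20.7% of all genes in the higher and 4.82% in the lower direction. The median log2 fold change was 3.14 over the 4 integrins and 0.17 over the 5 ligands, beside 0.32 over all tested genes.

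That background depended on how the libraries were scaled. Of the called genes, 78.7% were higher in the HFCF group with FPKM as deposited (3505 higher and 948 lower). With median-ratio scaling the share was 50.8% (2035 against 1969 genes), with quantile normalization 49.5% (1748 against 1782) and with TPM 59.2% (2227 against 1533). The median log2 fold change of all genes moved from 0.32 to 0.08 with TPM and to -0.07 with quantile normalization. All 4 integrins were called under each of these scalings and none of the 5 ligands was.

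The first HFCF pig (HFCF pig 1) stood apart from the other libraries. HBB, the beta chain of red cell haemoglobin, had 2846 FPKM there, 84.7 and 93.9 FPKM in the other HFCF pigs and 21.3 to 175 FPKM in the NC pigs. Of 7 platelet markers, TUBB1 and PPBP reached 8.12 and 5.71 FPKM in this pig and at most 0.445 FPKM in any other. HFCF pig 1 was the highest of the 6 pigs for 5 of the 7, but not by much for each. ITGA2B, the most abundant, had 8.25 FPKM there and 7.93 FPKM in NC pig 3. GP9 had 2.86 FPKM there against 3.71 FPKM in NC pig 1, and GP1BA 0.351 against 0.659 FPKM in NC pig 3. The 8 pan-leukocyte markers summed to 761 FPKM in HFCF pig 1, while HFCF pigs 2 and 3 had 276 and 269.6 FPKM and the NC pigs 55.1 to 57.3 FPKM. Fold changes of the measured genes and counts over lists at an adjusted p under 0.05 are therefore given with and without this pig. Counts by the DEG thresholds are given with all pigs only. Relative sequencing depth lay between 1 and 1.37 over the 6 libraries, so depth differed little between the groups. It was read as the most frequent ratio between NC pig 1 and each library among low FPKM values of genes with 1 transcript. The absolute depth is unknown. In whole tissue, more cells of a type and more RNA per cell cannot be told apart.

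**Figure D1:**
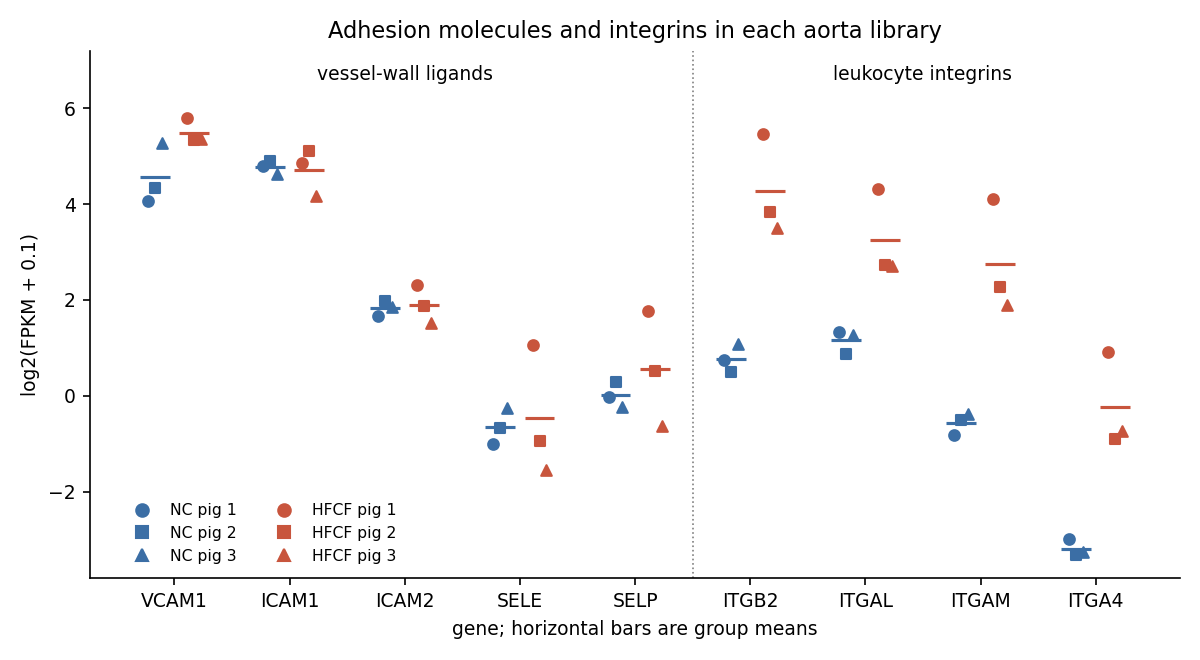
FPKM of the 9 measured genes in each of the 6 pigs on a log axis, with NC pigs in blue and HFCF pigs in red, each symbol 1 pig, and ligands to the left of the integrins. The 3 HFCF values lie above the 3 NC values for VCAM1, ITGB2, ITGAL, ITGAM and ITGA4, and HFCF pig 1 is the highest HFCF pig for every gene but ICAM1.

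Among the ligands, VCAM1 (ENSSSCG00000006862) holds the VLA-4 integrin. It had 16.5, 20.2 and 38.5 FPKM in the NC pigs and 55.4, 40.2 and 40.8 FPKM in the HFCF pigs. All HFCF values were above all NC values, but NC pig 3 lay close to HFCF pigs 2 and 3 and far above the other NC pigs. The log2 fold change on log2(FPKM + 0.1) was 0.94 (SE 0.32, 95% interval 0.18 to 1.69), with an adjusted p of 0.0652 from limma. It was 0.79 without HFCF pig 1 (limma adjusted p 0.156), and 1.29 without NC pig 3, the only setting among 15 in which VCAM1 was called (limma adjusted p 0.0126). Groups that did not overlap, with the HFCF group above, made up 36.1% of all tested genes.

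ICAM1 (ENSSSCG00000013655), which binds LFA-1 and Mac-1, had 27.8, 29.8 and 24.5 FPKM in the NC pigs and 29.0, 34.1 and 17.8 FPKM in the HFCF pigs. The highest and the lowest values were both from HFCF pigs, and the groups overlapped. The log2 fold change was -0.07, with a 95% interval of -0.66 to 0.52 that leaves out a change as large as that of any of the 4 integrins (limma adjusted p 0.858). Without HFCF pig 1 it was -0.15. HFCF pig 1, the pig with the highest leukocyte markers, had an ICAM1 level within the NC range. ICAM2 (ENSSSCG00000039909), which resting endothelium and platelets carry, had 3.08, 3.83 and 3.53 FPKM in the NC pigs and 4.85, 3.57 and 2.78 FPKM in the HFCF pigs. Its groups overlapped, and the log2 fold change was 0.07 (95% interval -0.51 to 0.64, limma adjusted p 0.857).

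The 2 selectins of the vessel wall were low in both groups. SELE, made by activated endothelium, had 0.395, 0.531 and 0.743 FPKM in the NC pigs and 1.99, 0.421 and 0.243 FPKM in the HFCF pigs. HFCF pig 1 had the highest value and HFCF pig 3 the lowest. SELP (ENSSSCG00000006288), which is stored in endothelium and in platelets, had 0.882, 1.13 and 0.747 FPKM in the NC pigs and 3.33, 1.34 and 0.550 FPKM in the HFCF pigs, again with HFCF pig 1 highest and HFCF pig 3 lowest. The log2 fold changes were 0.17 for SELE (95% interval -1.40 to 1.74, limma adjusted p 0.870) and 0.55 for SELP (95% interval -0.81 to 1.91, limma adjusted p 0.506). Without HFCF pig 1 they were -0.60 and -0.06. These wide intervals do not show that the selectins were equal in the groups. Whether platelet RNA contributed to the SELP value of HFCF pig 1 was not tested.

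The direction of ICAM2 and SELE turned with each of the 3 scalings, to log2 fold changes of -0.28 and -0.13 with median-ratio scaling, and that of SELP turned with quantile normalization, to -0.06. No direction is given for these ligands.

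The integrins differed more. ITGB2 (ENSSSCG00000025133), the shared beta chain, had 1.58, 1.32 and 2.0 FPKM in the NC pigs and 43.8, 14.2 and 11.3 FPKM in the HFCF pigs. The lowest HFCF pig was several times the highest NC pig, and HFCF pig 1 was 3.44 times the mean of the other HFCF pigs. The log2 fold change was 3.49 (SE 0.49, 95% interval 2.34 to 4.65), with an adjusted p of 0.00384 from limma, and the ratio of mean FPKM was 14.1. Without HFCF pig 1 the log2 fold change was 2.90 (limma adjusted p 0.00204).

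ITGAM (ENSSSCG00000007754), the alpha chain of Mac-1 on monocytes, macrophages and neutrophils, had 0.465, 0.606 and 0.669 FPKM in the NC pigs and 17.2, 4.73 and 3.60 FPKM in the HFCF pigs. The groups did not overlap, and HFCF pig 1 was again the highest. The log2 fold change was 3.33 (SE 0.56, 95% interval 2.01 to 4.64, limma adjusted p 0.00676), and 2.65 without HFCF pig 1 (limma adjusted p 0.00343). Its ratio of mean FPKM, 14.7, was close to that of its beta chain.

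ITGAL (ENSSSCG00000007797), the alpha chain of LFA-1 on most leukocytes and best known from lymphocytes, had 2.43, 1.74 and 2.31 FPKM in the NC pigs and 19.7, 6.57 and 6.45 FPKM in the HFCF pigs. The groups did not overlap, and the ratio of mean FPKM was 5.05. The log2 fold change was 2.09 (SE 0.44, 95% interval 1.06 to 3.12, limma adjusted p 0.0140), and 1.56 without HFCF pig 1 (limma adjusted p 0.00818). ITGAL had the highest adjusted p of the 4 integrins, and over 15 alternatives it reached 0.0492.

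ITGA4 (ENSSSCG00000016009), the alpha chain that binds VCAM1, was listed at 0 in NC pig 2 and had 0.0259 and 0.00382 FPKM in NC pigs 1 and 3. It had 1.79, 0.434 and 0.501 FPKM in the HFCF pigs, so it was low in both groups but without overlap. It passed the filter only through its HFCF values, so its call adds no support to the count of integrins. The log2 fold change was 2.95 (SE 0.54, 95% interval 1.67 to 4.24, limma adjusted p 0.00931), and 2.37 without HFCF pig 1 (limma adjusted p 0.0104). Because the NC values lay below the pseudocount, its size was set by that choice, from 0.85 with a pseudocount of 1 to 5.44 with 0.01.

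**Figure D2:**
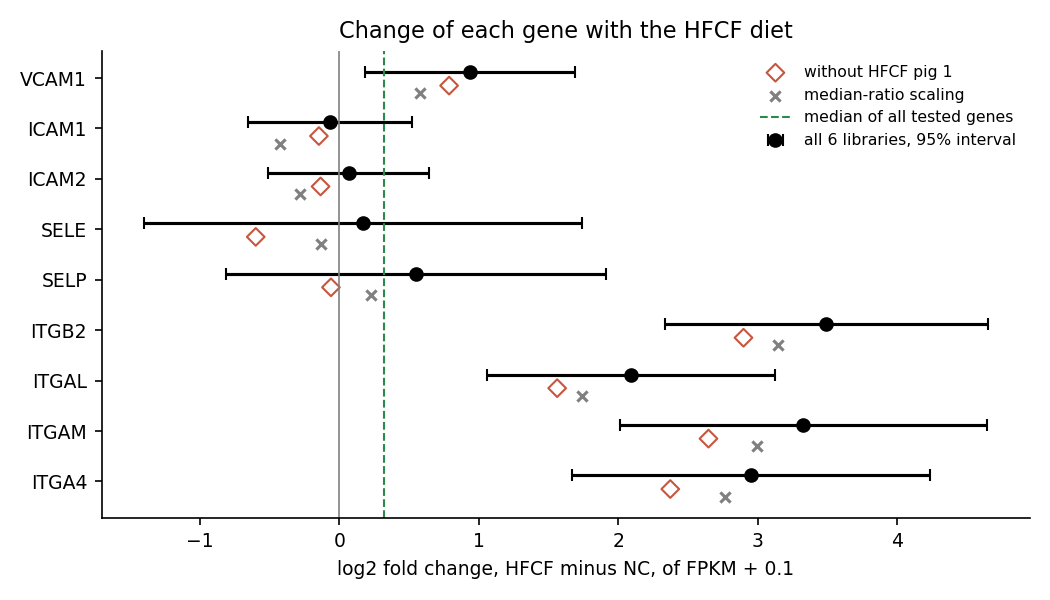
Log2 fold change, HFCF minus NC, of each measured gene on log2(FPKM + 0.1) with its 95% interval from limma for all 6 pigs, and without HFCF pig 1. The intervals of the 4 integrins lie above 1 with all pigs, and among the ligands that of VCAM1 alone lies above 0.

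The order of the levels differed between the groups. In NC aortas ICAM1 and VCAM1 led, with overlapping values, followed by ICAM2 and then by ITGAL and ITGB2, which overlapped each other. SELP came next, ITGAM and SELE overlapped, and ITGA4 was last. In HFCF aortas VCAM1 led with no overlap with ICAM1, and ITGB2, ITGAL and ITGAM came before ICAM2. From ICAM1 down, the HFCF values of each gene overlapped those of the next across pigs. Within each HFCF pig, however, the order ITGB2, ITGAL, ITGAM, ICAM2 and SELP from high to low was the same, and the places of ICAM1 and of SELE and ITGA4 changed between pigs. Among all tested genes, the mean level of ITGB2 moved from percentile 41.3 in the NC group to 87.7 in the HFCF group and that of ITGAM from 25.4 to 68.9, while ICAM1 was at 90.8 and 89.5.

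Summed over the 4 integrins, the level was 4.5, 3.66 and 4.98 FPKM in the NC pigs and 82.5, 25.9 and 21.8 FPKM in the HFCF pigs. The 5 ligands summed to 48.7, 55.5 and 68.0 FPKM and to 94.6, 79.7 and 62.2 FPKM. The ligand sums, mostly VCAM1 and ICAM1, overlapped between the groups. The integrins thus made up 6.20% to 8.45% of the summed level of the 9 genes on normal chow, and 46.6%, 24.5% and 26% of it on the HFCF diet.

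Whether 2 genes differed in their response was examined as their log2 ratio within each library, which a scaling factor per library barely moves, though quantile normalization can. The smallest p that the exact two-sided permutation test allows for 3 pigs in each group is 0.1, so no ratio can pass 0.05. Of 15 ratios listed in the design, 12 could be computed and 4 did not overlap between the groups, and the smallest Benjamini-Hochberg adjusted p was 0.3.

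The alpha chain ITGAL was lower against its beta chain in the HFCF pigs. The log2 ratio of ITGAL to ITGB2 was 0.59, 0.38 and 0.20 on normal chow and -1.15, -1.10 and -0.80 on the HFCF diet. The groups did not overlap, with a difference of -1.40 (exact permutation p = 0.1) and a range of -1.51 to -1.30 when any 1 pig was left out. The ratio of ITGAM to ITGB2 overlapped, at -1.34 ± 0.30 in the NC group and -1.51 ± 0.15 in the HFCF group (SD, n = 3 each, exact permutation p = 0.6). With a pseudocount of 1 that ratio also separated the groups, with a difference of -0.64 in place of -0.17 (exact permutation p = 0.1), so its contrast with ITGAL depends on the pseudocount. The log2 ratio of ITGAM to ITGAL was -1.73 ± 0.40 in NC and -0.50 ± 0.32 in HFCF pigs (SD, n = 3 each), without overlap (exact permutation p = 0.1). This last ratio was one of 6 added after the values had been seen. On the linear scale, the sum of ITGAL and ITGAM over ITGB2 was 1.84, 1.78 and 1.49 on normal chow and 0.844, 0.798 and 0.890 on the HFCF diet.

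Set against PTPRC (CD45), which all leukocytes carry, no integrin was higher in the HFCF group at the pseudocount used. PTPRC had 0.250, 0.337 and 0.499 FPKM in the NC pigs and 17.1, 4.28 and 4.10 FPKM in the HFCF pigs. The log2 ratio of ITGAL to PTPRC was 2.31 ± 0.47 in the NC group and 0.48 ± 0.24 in the HFCF group (SD, n = 3 each), a difference of -1.83 without overlap (exact permutation p = 0.1). ITGAM and ITGA4 against PTPRC differed by -0.59 and -0.96, also without overlap (exact permutation p = 0.1 each), and ITGB2 by -0.43 with overlap (exact permutation p = 0.2). With a pseudocount of 1, ITGB2 against PTPRC turned to 0.42, and with 0.01, ITGA4 against PTPRC turned to 1.22, so no direction is given for these 2. PTPRC was 1 of 8 pan-leukocyte markers, and ratios to the others were not computed. Log2 fold changes of the 8 ran from 2.31 (LAPTM5) to 4.35 (PTPN6), with PTPRC at 3.92. ITGB2 (3.49), ITGAM (3.33) and ITGA4 (2.95) lay within that span, so their direction depends on the marker chosen. ITGAL (2.09) lay below it.

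Set against 9 endothelial markers, no ligand separated the groups at a pseudocount of 0.1. VCAM1 had the largest difference, 0.92 on the log2 scale, with overlapping values (exact permutation p = 0.3). The differences were 0.53 for SELP, 0.15 for SELE, 0.05 for ICAM2 and -0.08 for ICAM1 (exact permutation p of 0.3, 0.7, 0.9 and 1). With a pseudocount of 1 the SELP ratio separated the groups, with a difference of 0.40 (exact permutation p = 0.1), and with quantile normalization SELE and ICAM2 turned to -0.22 and -0.20. Against their ligand ICAM1, the integrins ITGB2, ITGAL and ITGAM were higher in the HFCF group by 3.56, 2.16 and 3.39 log2 units, without overlap in each of these 3 added ratios (exact permutation p = 0.1, adjusted 0.12 over the 6 added). Without HFCF pig 1 these differences were 3.04, 1.71 and 2.79. ITGA4 against VCAM1 differed by 2.02, but by -0.060 with a pseudocount of 1, so no direction is given. VCAM1 against ICAM1 overlapped (difference 1.01, exact permutation p = 0.2).

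**Figure D3:**
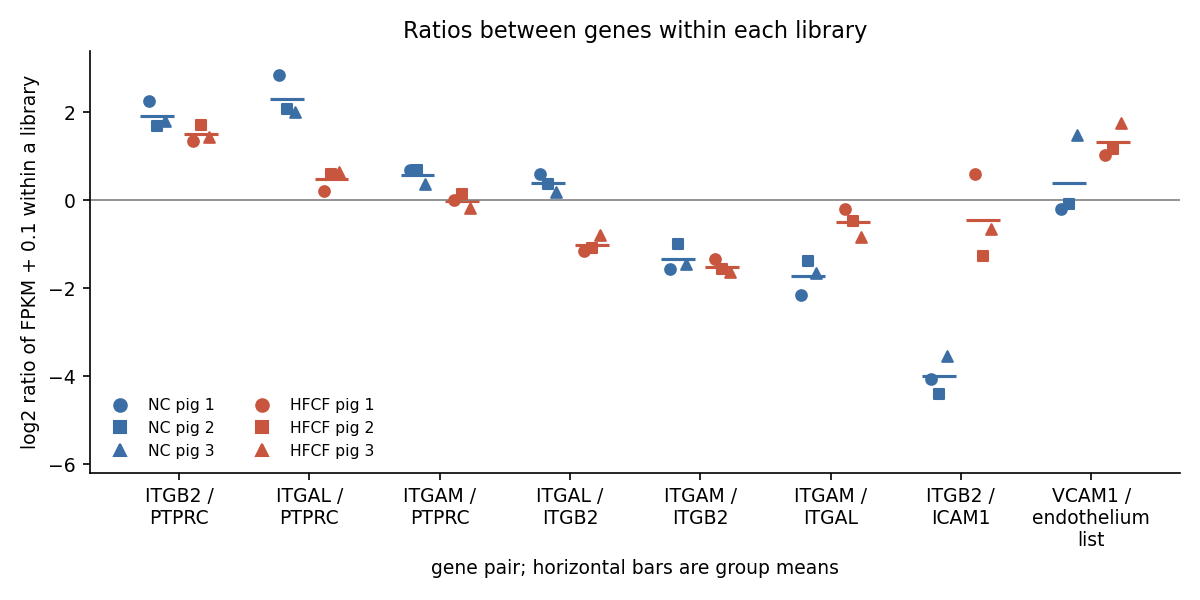
Log2 ratios of FPKM + 0.1 within each library, HFCF pigs in red and NC pigs in blue, each symbol 1 pig. ITGAL to ITGB2 lies above 0 in the 3 NC pigs and at -0.80 or below in the 3 HFCF pigs, whereas ITGAM to ITGB2 overlaps between the groups at this pseudocount but not at a pseudocount of 1.

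Markers of leukocytes moved with the integrins. All 8 pan-leukocyte markers were higher in the HFCF group (median log2 fold change 3.67), beside 22.8% of all genes. LAPTM5 and CD53 were among the most abundant. Of 11 macrophage markers tested 10 were higher (median 3.96), beside the same share of all genes. The macrophage markers summed to 47.9 to 59.5 FPKM in the NC pigs and to 1807, 792 and 701 FPKM in the HFCF pigs. The complement gene C1QC, which tissue macrophages make, rose from 16.1 ± 4.5 to 461 ± 270.4 FPKM (SD, n = 3 each), and LYZ was listed at 0 in all 6 pigs.

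Other blood cells were read from shorter or sparser lists. Of the neutrophil markers 1 of 5 was higher, CSF3R, beside 22.8% of all genes. The neutrophil list had sums of 1.67 to 3.07 FPKM in the NC pigs and of 100.6, 13.7 and 6.63 FPKM in the HFCF pigs. The T cell list had 2 of 10 higher, near the 22.8% of all genes. By the DEG thresholds 6 were higher, beside 20.7% of all genes. The groups did not overlap for 8, with the HFCF group above, beside 36.1% of all genes. In this list CD4 and ZAP70 were tested only because of their HFCF values, with NC means of 0.0160 and 0.0377 FPKM. The sums of the T cell list were 2.25 to 2.81 FPKM in NC pigs and 23.2, 4.32 and 6.63 FPKM in HFCF pigs. The NK cell list had 2 of 6 higher, the B cell list 2 of 6, the dendritic cell list 0 of 4, the platelet list 0 of 7 and the red cell list 0 of 4 (limma throughout). These counts also stand beside 22.8% of all genes. Without HFCF pig 1, 8 of 8 pan-leukocyte, 9 of 11 macrophage, 1 of 4 neutrophil and 1 of 9 T cell markers were higher, beside 18.5% of all genes. In the same refit 2 of 5 NK cell, 2 of 5 B cell, 0 of 3 dendritic cell, 0 of 4 platelet and 0 of 4 red cell markers were higher. The integrins in HFCF pig 1 were 3.03 to 4.13 times the mean of the other HFCF pigs, against 2.54 to 4.09 times for the pan-leukocyte markers and a median of 32.3 times for the red cell markers. The part of each cell type in the integrin values was not tested.

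Endothelium and smooth muscle had no marker that passed the test as higher. Of 9 endothelial markers 0 were higher and 1 lower, beside 22.8% and 6.16% of all genes. The counts were the same without HFCF pig 1, beside 18.5% and 5.18% of all genes. The lower marker was ESAM (log2 fold change -0.71, limma adjusted p 0.00921), and the list median was -0.17. By the DEG thresholds 2 of 9 were higher, near the 20.7% of all genes. These were TEK and KDR, receptors of angiopoietin and VEGF (limma adjusted p 0.0541 and 0.111). PECAM1 had a mean of 69.3 ± 26.3 FPKM in NC and 57.7 ± 19.8 FPKM in HFCF pigs (SD, n = 3 each). The list summed to 311, 357 and 251 FPKM in the NC pigs and to 318, 239 and 178 FPKM in the HFCF pigs. Of 8 smooth muscle markers 6 were lower, 4 without HFCF pig 1, beside 6.16% and 5.18% of all genes. With MYH11 at 2058 ± 196 and 987 ± 202 FPKM (SD, n = 3 each) these markers fit the label of the tissue in both groups. The fall in smooth muscle markers stands beside the rise of the integrins in a measure that is scaled by the mapped reads of each library.

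**Figure D4:**
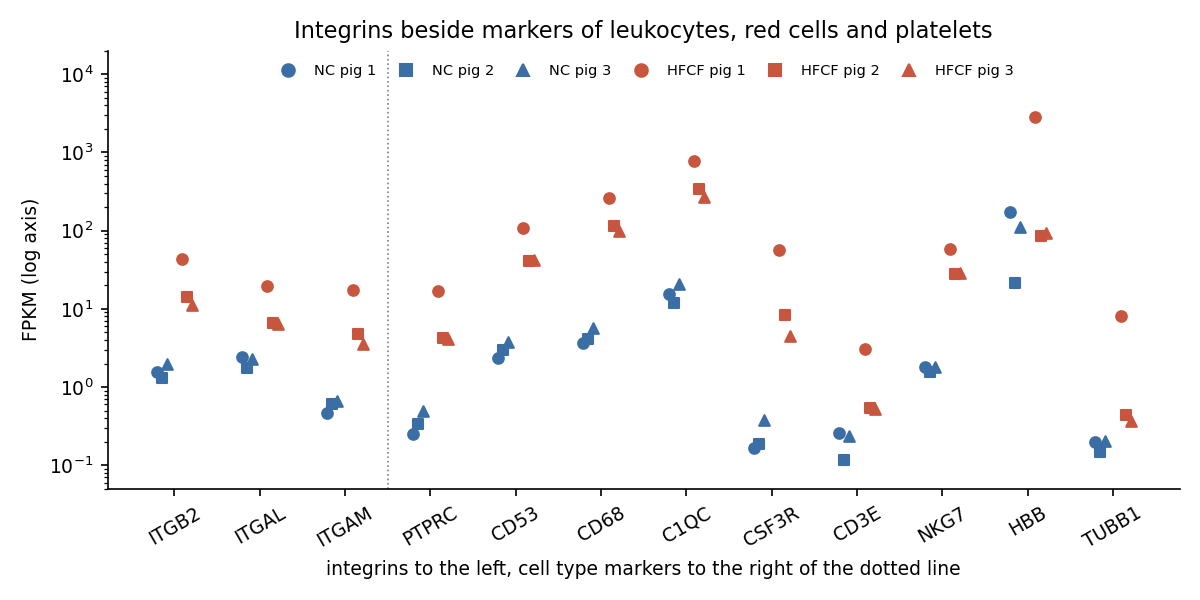
FPKM of 3 integrins and of marker genes of leukocytes (PTPRC, CD53), macrophages (CD68, C1QC), neutrophils (CSF3R), T cells (CD3E), NK cells (NKG7), red cells (HBB) and platelets (TUBB1) on a log axis, each symbol 1 pig. HFCF pig 1 is the highest of the 6 pigs for each gene shown, and for each gene shown but HBB the other 2 HFCF pigs also lie above all NC pigs. The genes shown do not stand for their whole lists. Of these lists 1 of 5 neutrophil, 2 of 10 T cell, 2 of 6 NK cell and 0 of 7 platelet markers were called higher (limma).

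The other genes of leukocyte recruitment were taken in 5 lists of 74 genes, of which 64 were matched and 62 tested. At an adjusted p under 0.05 (limma), 22 were higher, 9 lower and 31 did not pass, or 35.5% higher beside 22.8% of all genes. The 9 lower stand beside 6.16% of all genes. Without HFCF pig 1, 18 of 60 were higher (30%, beside 18.5% of all genes) and 8 lower (13.3%, beside 5.18%).

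Among 10 integrin chains that can pair with or stand beside those above, 2 were higher, or 20%, near the 22.8% of all genes. Another 2 were lower, beside 6.16% of all genes. Without HFCF pig 1 the counts were 2 and 1, beside 18.5% and 5.18%. ITGB7, which pairs with ITGA4 on gut-homing lymphocytes, had 0.192, 0.450 and 0.419 FPKM in the NC pigs and 11.9, 1.75 and 2.37 FPKM in the HFCF pigs (log2 fold change 3.12, limma adjusted p 0.0176, and 2.29 without HFCF pig 1). ITGAE, which pairs with ITGB7, rose by 1.86 log2 units (limma adjusted p 0.0185), a call that held in 11 of 14 alternatives and was lost with quantile normalization (limma adjusted p 0.0818). ITGB1, the other partner of ITGA4 and a chain of nearly all cells, had 70.5, 70.4 and 177 FPKM and 90.5, 111.6 and 41.6 FPKM, which overlapped (limma adjusted p 0.608). The fibronectin receptor chain ITGA5 fell by 1.30 and the collagen receptor chain ITGA1 by 0.59 log2 units (limma adjusted p 0.0347 and 0.0467), and the calls held in 8 and in 6 of 15 alternatives. These 2 were named after their values had been seen.

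Of 10 selectin partners and the enzymes that build their sugars, 6 were higher and 1 lower, beside 22.8% and 6.16% of all genes. Without HFCF pig 1 the counts were 3 and 1, beside 18.5% and 5.18% of all genes. The sialyltransferase ST3GAL6 rose by 2.25 log2 units (limma adjusted p 0.00257). CD44, a partner of SELE found on many cells, had 18.4 ± 2.70 and 23.5 ± 2.30 FPKM (SD, n = 3 each, limma adjusted p 0.145). The 1 lower gene was GLG1, a Golgi protein that binds SELE, with a fall of 1.14 (limma adjusted p 0.0173) that was called in 13 of 15 alternatives, named after its value had been seen. SELPLG, the main partner of SELP, was not analysed here.

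Of 16 genes that switch integrins on, 8 were higher and 2 lower, beside 22.8% and 6.16% of all genes. The counts were the same without HFCF pig 1, beside 18.5% and 5.18% of all genes. CYTIP, which binds the ITGB2 regulator cytohesin, rose by 4.62, and VAV1, an exchange factor of blood cells, by 3.90 log2 units (limma adjusted p 0.00312 and 0.00109). Proteins that bind the tails of beta chains did not move one way. FERMT3 (kindlin-3), the blood cell form of kindlin, had 2.06, 1.79 and 2.48 FPKM in the NC pigs and 25.9, 13.1 and 9.78 FPKM in the HFCF pigs, a rise of 2.78 (limma adjusted p 0.00290). TLN1 (talin-1), which leukocytes and smooth muscle share, had 432, 319 and 454 FPKM and 146, 163 and 159 FPKM, a fall of 1.35 (limma adjusted p 0.00312). The other lower gene, VCL (vinculin), which talin binds, fell by 1.14 (limma adjusted p 0.00257) and was named after its value had been seen. FERMT2 (kindlin-2), the kindlin of other tissues, had 29.4 ± 5.45 and 28.1 ± 2.58 FPKM (SD, n = 3 each, limma adjusted p 0.839), and was also named after its values had been seen. The calls of CYTIP, VAV1, FERMT3, TLN1 and VCL held in 15 of 15 alternatives.

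Of 16 genes of passage through the endothelium, 4 were higher, or 25%, near the 22.8% of all genes. A further 4 were lower, beside 6.16% of all genes. Without HFCF pig 1, 3 of 15 were higher and 4 lower, beside 18.5% and 5.18% of all genes. JAML, a junction-binding protein of leukocytes, rose by 2.43 log2 units (limma adjusted p 0.00255). JAM3, a junction protein that binds Mac-1, had 46.9, 17.6 and 43.7 FPKM in the NC pigs and 7.09, 6.99 and 6.20 FPKM in the HFCF pigs, a fall of 2.28 (limma adjusted p 0.00591). MCAM, found on endothelium and smooth muscle, fell by 1.98, the actin linker MSN by 1.26 and ESAM by 0.71, and these 3 were named after their values had been seen (limma adjusted p 0.00115, 0.0199 and 0.00921). The call of MSN held in 12 of 15 alternatives. Of 10 other ligands, 2 were higher, again near the share of all genes, and 0 lower (2 of 9 and 0 without HFCF pig 1). SPP1 (osteopontin), which ITGA4 and ITGAV bind, had a mean of 8.21 ± 7.83 FPKM in NC and 426 ± 219 FPKM in HFCF pigs (SD, n = 3 each, limma adjusted p 0.00179). THY1, a ligand of Mac-1 found on fibroblasts and activated endothelium, had 36.9, 34.5 and 38.9 FPKM in the NC pigs and 117, 145.8 and 118 FPKM in the HFCF pigs (log2 fold change 1.78, limma adjusted p 0.000797). Unlike the integrins, it was no higher in HFCF pig 1 than in the other HFCF pigs. MADCAM1, the ligand of the ITGA4 and ITGB7 pair, had at most 0.136 FPKM in any pig and was not tested.

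**Figure D5:**
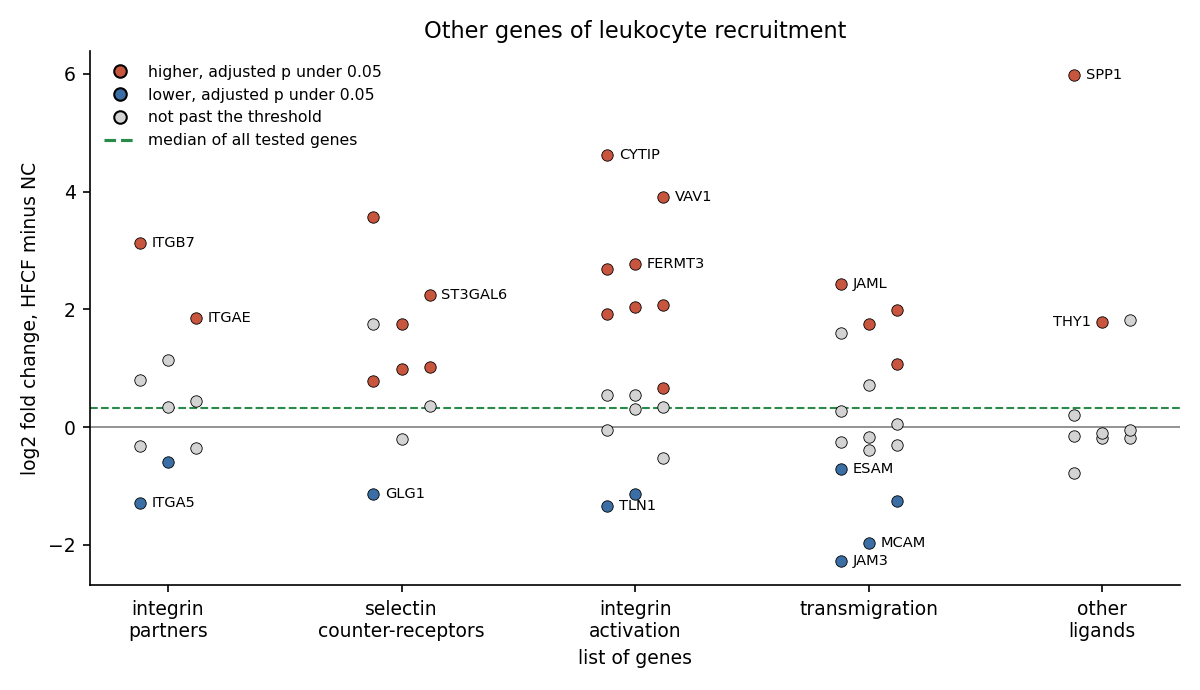
Log2 fold change, HFCF minus NC, of each tested gene in 5 lists of leukocyte recruitment, with genes past an adjusted p under 0.05 (limma) in red (higher) or blue (lower) and the others in grey. Of the 62 genes 22 are higher and 9 lower, with SPP1 at 5.98 and JAM3 at -2.28 at the ends.

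For the 7 measured genes with a mean of at least 1 FPKM, the genes most like each in level were sought among 10350 genes by Pearson's r of log2(FPKM + 0.1) over the 6 libraries. The 6 points fall into 2 diet groups and share those libraries, so r is a description only. Most like ITGB2 was HCLS1, an actin regulator of blood cells (r = 0.999), followed by CISD2. Most like ITGAM were CORO1A, a coronin of leukocytes (r = 0.999), CTSC and SDCBP, and most like ITGAL were DNASE1L1 (r = 0.998), EDDM3B and FAM111B. Among ligands, VCAM1 was most like CAB39L (r = 0.997), ASH1L and PHF11. ICAM1 was most like MT1X (r = 0.983), CWC25 and MAPKAPK2, ICAM2 like TMOD3 (r = 0.971), MCU and TTLL5, and SELP like SRBD1 (r = 0.994), TRPC6 and SNORA81.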

How the data were processed

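The authors sequenced abdominal aorta RNA of 3 NC and 3 HFCF pigs, trimmed reads (cutadapt 1.9, per the submitters' processing notes), aligned them with HISAT2 and quantified them with StringTie. The authors deposited 1 FPKM value per library for each of 30477 genes. Aligner versions and the handling of reads shared by related genes are not given in the sources used here. Counts were not used, so the precision rests on the spread among pigs. A value of 0.0001 FPKM was read as 0.

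Values were analysed as log2(FPKM + 0.1), which understates changes of low genes, in limma 3.58.1 under R 4.3.3. The 15384 genes whose mean reached 0.1 FPKM were fitted with diet as the sole factor and a variance trend in eBayes, and p-values were adjusted by Benjamini-Hochberg over all of them. Ratios within libraries were tested with exact two-sided permutation tests. Scripts were tested on simulated data. Genes were matched by deposited names, then by a table of gene IDs, then by NCBI gene numbers in a RefSeq table used for names only. The build named in the methods is not that of the RefSeq table, so no coordinates are given.

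The genes, lists and tests were chosen with earlier results of these data known. In each recruitment list the called genes with the 2 largest absolute changes and the binding partners of the members were named, and some genes that this rule picks are not reported here. Alternatives were other pseudocounts (1 and 0.01), filters, scalings, no variance trend, a replicate block, the DEG thresholds and each library left out in turn.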

Additional observations from a re-analysis of the deposited data

How the results depend on the processing

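Over the 15 refits and the DEG thresholds, 4 integrins were called in all but one setting. With a minimum mean of 1 FPKM, ITGA4 was not tested and 3 were called. With each pig left out in turn the count was 4 throughout for the integrins and 0 to 1 for the ligands (1, VCAM1, without NC pig 3). For the recruitment genes it was 21 to 28, beside 31 with all pigs. Over all genes it was 2421 to 3596 (2421 without NC pig 1 and 2883 without NC pig 2), beside 4453 with all pigs. These are all genes called in each refit, not the share of the first calls that was kept. Same-numbered pigs did not deviate together (correlations of 0.02, -0.08 and -0.07), so the numbers do not pair them. A replicate block gave 2772 genes, with 4 integrins and 0 ligands called.

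Ligand directions were unstable. ICAM2 and SELE turned to -0.28 and -0.13 with median-ratio scaling, -0.39 and -0.41 with quantile normalization, -0.19 and -0.050 with TPM, -0.02 and -0.02 without NC pig 1, and -0.13 and -0.60 without HFCF pig 1. SELP turned to -0.057 with quantile normalization and to -0.060 without HFCF pig 1, and ICAM1 to 0.21 without HFCF pig 3. With each pig left out the log2 fold change spanned -0.26 to 0.21 for ICAM1, -0.13 to 0.26 for ICAM2, -0.60 to 0.70 for SELE and -0.060 to 1.14 for SELP.

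The pseudocount moved ratios that hold a gene near 0. With a pseudocount of 1 the differences against PTPRC were 0.42 (ITGB2), -0.79 (ITGAL), -0.22 (ITGAM) and -1.69 (ITGA4), and against ITGB2 -0.64 (ITGAM) and -2.11 (ITGA4). With 0.01, ITGA4 differed by 1.22 against PTPRC and by 1.88 against ITGB2. The ratio of ITGA4 to VCAM1 turned to -0.060 with a pseudocount of 1. The ratio of ITGAL to ITGB2 and the 5 ratios to endothelial markers moved by less than the spread between pigs in all 9 alternatives. Precision was limited by 3 pigs a group and unknown absolute depth.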

Other observations

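The deposited annotation puts all 9 measured genes in the KEGG pathway of cell adhesion molecules. Of its 105 tested genes in HFCF aortas 35 were higher and 6 were lower at an adjusted p under 0.05 (limma), with a median log2 fold change of 0.71 (28 and 7 of 99 without HFCF pig 1). VCAM1, ICAM1, ITGB2, ITGAL, ITGAM and ITGA4 are also in the KEGG pathway of leukocyte transendothelial migration, where 26 of 93 were higher and 13 lower, with a median of 0.45 (25 and 12 of 90 without HFCF pig 1). Over all genes 22.8% were higher and 6.16% lower and the median was 0.32, so 28.0% higher in the second pathway is near the background. Both pathways were chosen after values had been seen.

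Of the remaining cell type lists, 1 of 7 fibroblast markers (LUM), 0 of 6 adipocyte markers and 0 of 6 markers of lymphatic and venous endothelium were higher, and 0 were lower in each (limma). Over all genes 22.8% were higher and 6.16% lower. Without HFCF pig 1 the counts higher were 1 of 7, 0 of 6 and 0 of 5, and 0 were lower in each, beside 18.5% and 5.18% of all genes. The lymphatic and venous list summed to 49.4 to 104 FPKM in the NC pigs and to 81.2 to 175 FPKM in the HFCF pigs.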
